A study of Mus musculus with 36 samples.

Results

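Mcm2, Mcm3, Mcm4, Mcm5, Mcm6 and Mcm7 encode the 6 subunits of the replicative DNA helicase, and their transcripts were followed here in mouse blood. They are 6 of the 18193 gene symbols that the array's annotation gives to probe sets with a single symbol. Every probe set with one of these 6 symbols was taken, which gave 19 of the 45101 probe sets on the array. Of the 19, 16 passed the filter on low values, which left 22518 probe sets for testing. The mice were males of 6 inbred strains (C57Bl/6J, A/J, FVB/NJ, 129S1/ImJ, DBA/2J and C3H/HeJ), aged 8 weeks, with 3 mice per strain and no treatment of the animals in the labels. Blood was drawn from the heart, and RNA of each of the 18 mice was hybridized once whole and once after passage through the GLOBINclear kit, which captures alpha and beta globin mRNA, so that 36 arrays fell into 12 groups of 3. The labels name the first strain 129S1/ImJ, and the protocol text writes it 129S1/SvImJ. Values are the deposited log2 levels. Probes differ in affinity, so the level of one probe set is not read against that of another to say which transcript is more abundant.

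The 6 Mcm proteins form a ring that is loaded around DNA as a double hexamer before S phase by the origin recognition complex, Cdc6 and Cdt1. It is switched on by Cdc45 and the GINS complex and then unwinds the parental strands at the fork. The genes are classical targets of E2F factors, so their transcripts accompany proliferation. In blood, where most cells do not divide, such transcripts can come from cycling white cells or be carried over in young red cells from their dividing precursors.

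The start regions of the Mcm genes are shown because the 6 subunits are described together as an E2F-regulated set. RefSeq start windows of 300 bases (250 before and 50 after the start, build GRCm38.p6) were matched for 5 of the 6 genes, in 6 windows, Mcm7 having more than 1. The words TTTCGCGC and TTTGGCGC, forms of the E2F site, were searched on both strands, and words that overlap were counted separately. At least 1 word stood in 4 of the 6 Mcm windows, against 0.813% of all 32851 windows of that length. A match is a string of letters and not a shown binding site. The Mcm5 stretch (chr8:75109259-75109467, plus strand) ends where the annotated gene begins and holds overlapping words on opposite strands. The Mcm6 stretch (chr1:128359706-128359955, minus strand) holds 3 words, and only 0.0244% of all windows hold more than 1. The word of Mcm3 (chr1:20820263-20820292, minus strand) and that of Mcm7 (chr5:138171847-138171876, minus strand) lie after the start, with their first bases at positions 39 and 17. In the lines that follow, 5′ to 3′, capitals mark the words.
Mcm5: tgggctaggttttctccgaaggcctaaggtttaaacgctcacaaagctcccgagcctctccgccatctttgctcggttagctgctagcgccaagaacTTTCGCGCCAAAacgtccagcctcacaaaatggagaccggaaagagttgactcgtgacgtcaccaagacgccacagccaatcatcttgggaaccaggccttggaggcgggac
Mcm6: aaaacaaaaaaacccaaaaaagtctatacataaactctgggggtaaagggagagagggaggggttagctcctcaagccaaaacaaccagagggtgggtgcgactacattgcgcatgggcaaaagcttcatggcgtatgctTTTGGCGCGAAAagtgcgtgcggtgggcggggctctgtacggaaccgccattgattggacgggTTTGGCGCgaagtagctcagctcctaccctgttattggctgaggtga
Mcm3: cgggaaaacttgggaagtTTTGGCGCcaag
Mcm7: gtgacgacgTTTCGCGCcaatttcggttgg

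The Mcm2 window held neither word. All 6 Mcm windows held the CCAAT box on one strand or the other, as did 37.4% of all windows. The 6 genes lie apart on chromosomes 6 (Mcm2, chr6:88883474-88898780), 1 (Mcm3, chr1:20802966-20820312, and Mcm6, chr1:128331575-128359705), 16 (Mcm4, chr16:15623897-15637400), 8 (Mcm5, chr8:75109468-75128439) and 5 (Mcm7, chr5:138164583-138172111), all in GRCm38.p6.

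The helicase probe sets differed between whole and GLOBINclear RNA in mixed directions. On the deposited scale, 9 of the 16 tested probe sets were higher in GLOBINclear than in whole RNA, 3 were lower and 4 did not pass the test (limma with the mouse as a block, adjusted p under 0.05). Among them, Mcm7 1416030_a_at (higher) passed the filter only through GLOBINclear RNA and Mcm3 1420029_at (lower) only through whole RNA. Over all tested probe sets 39.4% were higher and 47.6% lower. The members' median change was 0.25 on the log2 scale, beside -0.05 for all tested probe sets; with quantile normalization of all arrays these medians were -0.02 and -0.08. At least 1 probe set rose for Mcm2, Mcm4, Mcm5, Mcm6 and Mcm7, and none of the 4 tested for Mcm3 did. The split depends on how the arrays are brought to 1 scale: with quantile normalization of all arrays together, 6 were higher and 8 lower. Only 3 probe sets, 1 each of Mcm2, Mcm5 and Mcm7, rose by log2 1 or more, as did 18.2% of all tested probe sets. Centring on the hybridization spike-ins instead moved the median of all tested probe sets to 2.03, and every member was then higher than in whole RNA.

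**Figure D1:**
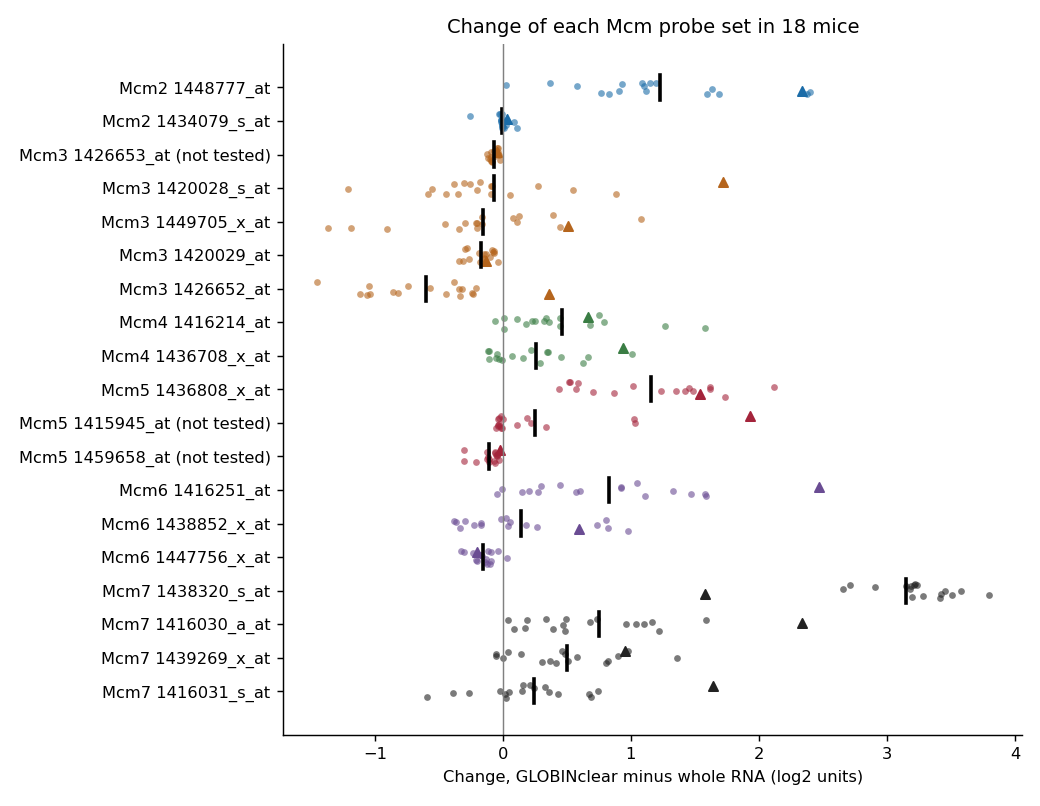
Change of each of the 19 Mcm probe sets (GLOBINclear minus whole RNA, log2 units, horizontal axis); each point is 1 of 18 mice, the triangle is C57Bl/6J replicate 1 and the black bar is the mean. One Mcm7 probe set stands apart with a mean change of 3.15, while most others lie between -0.60 and 1.23.

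Mcm4, Mcm6 and Mcm7 together form a subcomplex that has helicase activity of its own in the test tube, and they are taken first. The Mcm7 probe set 1438320_s_at read 2.53, 3.25 and 6.30 (lowest, median and highest of 18 mice) in whole RNA and 5.71, 6.57 and 7.89 in GLOBINclear RNA. The ranges met only through C57Bl/6J replicate 1, which read 6.30 in whole RNA, while the next highest whole RNA value was 4.90 (A/J replicate 2). The mean rose by 3.15 ± 0.11 (SE) in 18 of 18 mice (limma adjusted p 4.46e-15), and by 2.38 with quantile normalization of all arrays (limma adjusted p 1.57e-11). No fold is given, since most of the whole RNA values lie near the bottom of the scale. Only 29 of all tested probe sets, or 0.129%, rose by log2 3 or more. The rise was 2.55 ± 0.92 (SD, n = 3) in C57Bl/6J and between 3.17 and 3.38 in the other 5 strains.

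The other Mcm7 probe sets changed far less. Probe set 1416030_a_at read 2.65, 2.70 and 2.81 in whole RNA, a tight band near the bottom of the scale, and 2.73, 3.28 and 5.12 in GLOBINclear RNA. It rose by 0.75 ± 0.13 (SE) in 18 of 18 mice (limma adjusted p 2.42e-05). Its whole RNA mean of 2.71 lay below the filter bound of log2 2.89, so it was tested only through its GLOBINclear level. Probe set 1439269_x_at read 3.32, 3.85 and 3.89 in whole RNA and 3.77, 4.24 and 5.23 in GLOBINclear RNA, and its change was 0.50 ± 0.09 (SE) with 16 of 18 mice higher (limma adjusted p 4.15e-05). The ranges of both sets overlapped between the preparations. With quantile normalization of all arrays the change of 1439269_x_at was 0.09 (limma adjusted p 0.304). Probe set 1416031_s_at read 3.96, 4.30 and 4.69 in whole RNA and 3.86, 4.41 and 5.88 in GLOBINclear RNA. Its change of 0.25 ± 0.11 (SE) lay close to the threshold (limma adjusted p 0.0462), with 14 of 18 mice higher. That call was lost in 11 of the 18 fits that left out 1 mouse (limma adjusted p up to 0.084): replicates 2 and 3 of 129S1/ImJ, C3H/HeJ and DBA/2J, replicates 1 and 2 of A/J, replicates 1 and 3 of C57Bl/6J and replicate 1 of FVB/NJ. The change was smallest, at 0.16, without C57Bl/6J replicate 1 (limma adjusted p 0.0814). It was also lost without the mouse as a block (limma adjusted p 0.0735), and with quantile normalization of all arrays the change was -0.52.

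**Figure D2:**
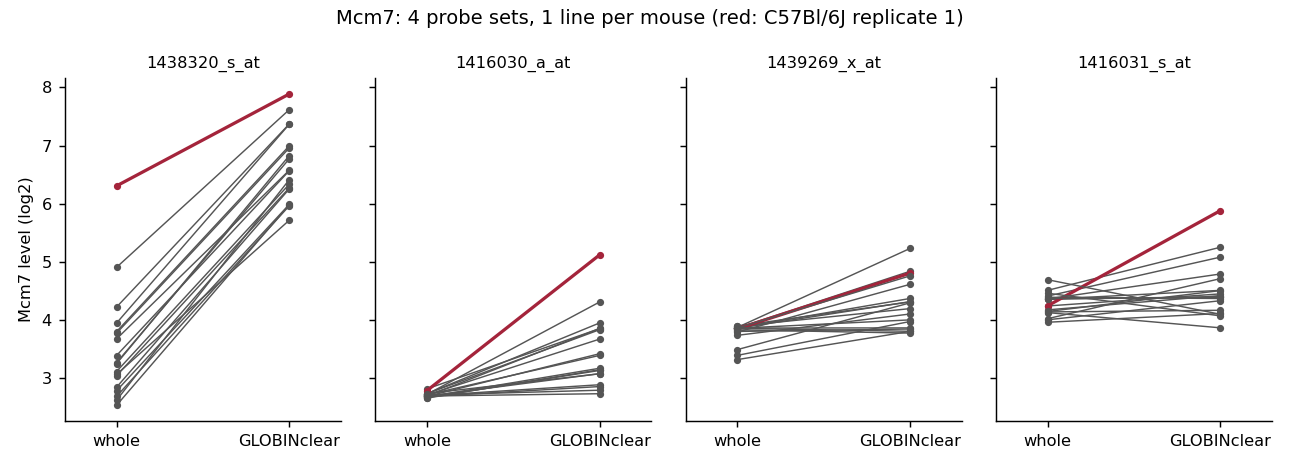
Levels of the 4 Mcm7 probe sets (log2, vertical axis) in whole and GLOBINclear RNA, with 1 line per mouse and C57Bl/6J replicate 1 in red. Probe set 1438320_s_at climbs from a mean of 3.51 to 6.66, and the other sets move by 0.75, 0.50 and 0.25.

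Mcm6, whose protein sits between Mcm2 and Mcm4 in the ring, was read by 3 probe sets that went different ways. Probe set 1416251_at read 2.63, 2.91 and 4.20 in whole RNA and 2.80, 3.72 and 6.66 in GLOBINclear RNA, where C57Bl/6J replicate 1 was highest in both. It rose by 0.83 ± 0.15 (SE) in 16 of 18 mice (limma adjusted p 3.55e-05). Probe set 1438852_x_at went from a mean of 4.14 to 4.28 and did not pass the test (change 0.14 ± 0.10 SE, limma adjusted p 0.202), but with quantile normalization of all arrays it was lower by a called amount (-0.46, limma adjusted p 2.01e-05). Probe set 1447756_x_at fell by 0.16 on the log2 scale, from 3.14 ± 0.06 to 2.98 ± 0.07 (SD, n = 18), in 17 of 18 mice (limma adjusted p 1.76e-06). This small fall was -0.08 after median centring and -0.09 after quantile normalization of all arrays.

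Mcm4 carries a tail that the Cdc7 kinase phosphorylates when origins fire. Probe set 1416214_at read 3.18, 3.59 and 4.90 in whole RNA and 3.54, 3.94 and 5.56 in GLOBINclear RNA, with C57Bl/6J replicate 1 at the top of both ranges. The rise was 0.46 ± 0.10 (SE), in 17 of 18 mice (limma adjusted p 0.000187), and 0.21 with quantile normalization of all arrays (limma adjusted p 0.017). Probe set 1436708_x_at, at 3.35 ± 0.04 (SD, n = 18) in whole RNA and 3.61 ± 0.35 in GLOBINclear RNA, rose by 0.26 ± 0.08 (SE) in 11 of 18 mice (limma adjusted p 0.00575).

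Mcm2, which also binds histones at the fork, and Mcm5 form the gate through which the ring opens onto DNA. Mcm2 probe set 1448777_at read 3.31, 3.38 and 3.91 in whole RNA and 3.34, 4.49 and 6.31 in GLOBINclear RNA. The highest value was that of FVB/NJ replicate 2 and the lowest that of 129S1/ImJ replicate 3, which stayed within the whole RNA range. The rise of 1.23 ± 0.15 (SE) was seen in 18 of 18 mice (limma adjusted p 2.28e-07). The second Mcm2 probe set, 1434079_s_at, hardly varied between mice, at 4.02 ± 0.03 and 4.01 ± 0.07 (SD, n = 18), and its change was -0.01 ± 0.03 (SE, limma adjusted p 0.805). That value turned with the scaling: it was -0.49 with quantile normalization of all arrays (limma adjusted p 7.7e-11) and 0.07 with median centring (limma adjusted p 0.0123).

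Mcm5 probe set 1436808_x_at read 4.06, 4.67 and 6.72 in whole RNA and 4.71, 5.68 and 8.26 in GLOBINclear RNA, so that the ranges overlapped. C57Bl/6J replicate 1 gave the highest value in each. It rose by 1.16 ± 0.12 (SE) in 18 of 18 mice (limma adjusted p 1.8e-08). With quantile normalization of all arrays that rise was 0.05 (limma adjusted p 0.69), so that call depends on the scaling. Of the Mcm5 probe sets below the filter, 1459658_at stayed between 2.42 and 2.80 on every array. Probe set 1415945_at lay between 2.33 and 2.40 in whole RNA. In GLOBINclear RNA it read 4.29 in C57Bl/6J replicate 1 and 3.43 and 3.39 in 129S1/ImJ replicates 1 and 2, the 3 mice that were also highest for 1436808_x_at (8.26, 6.59 and 7.35), against a median of 2.35 over 18 mice.

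Mcm3, the partner of Mcm5 in the ring, was the subunit with no rise on the deposited scale. Probe set 1426652_at read 3.09, 3.44 and 4.24 in whole RNA and 2.61, 2.89 and 3.45 in GLOBINclear RNA. It fell by 0.60 ± 0.10 (SE) on the log2 scale in 17 of 18 mice (limma adjusted p 1.12e-05). C57Bl/6J replicate 1 was the exception, at 0.36. Probe set 1420029_at fell by 0.17 ± 0.02 (SE), from 2.97 to 2.81, in 18 of 18 mice (limma adjusted p 8.28e-07), and its change was -0.09 under median centring and under quantile normalization of all arrays. It was tested only through its whole RNA level, since its GLOBINclear mean lay below the filter bound of log2 2.89. Probe set 1420028_s_at had a change of -0.07 ± 0.14 (SE, limma adjusted p 0.646) that ranged from -1.21 in A/J replicate 2 to 1.72 in C57Bl/6J replicate 1. Probe set 1449705_x_at had a change of -0.15 ± 0.13 (SE, limma adjusted p 0.284). With quantile normalization of all arrays both were called lower, at -0.63 (1420028_s_at, limma adjusted p 0.000125) and -0.56 (1449705_x_at, limma adjusted p 0.00238). The untested set 1426653_at lay between 2.30 and 2.48 on all 36 arrays.

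Probe sets of the same gene were then compared by their changes, mouse by mouse. There are 17 pairs of tested probe sets within a gene, and in 13 the changes differed (permutation test, sign flips over 18 mice, two-sided, adjusted p under 0.05 over the 17 pairs). Same-gene pairs of other genes were not analysed here, so this count is not read as particular to the Mcm genes. Of all tested probe sets, 39.4% were called higher and 47.6% lower in GLOBINclear RNA. For Mcm7, 1438320_s_at changed by 2.40 ± 0.95 (SD, n = 18 mice) more than 1416030_a_at, with 17 of 18 mice in that direction (permutation adjusted p 0.000136). It changed by 2.65 ± 0.77 more than 1439269_x_at in 18 of 18 mice (permutation adjusted p 0.000113). The exception in the first comparison was C57Bl/6J replicate 1, where 1438320_s_at moved by 1.58 and 1416030_a_at by 2.34. For Mcm2 the difference was 1.23 ± 0.64 in 18 of 18 mice, and for Mcm6 1416251_at exceeded 1447756_x_at by 0.98 ± 0.67, also in 18 of 18 (permutation adjusted p 0.000113 for both).

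For Mcm4 the difference of 0.21 ± 0.38 passed only narrowly (14 of 18 mice, permutation adjusted p 0.0336), as did 1439269_x_at minus 1416031_s_at of Mcm7 (0.25 ± 0.43, 14 of 18 mice, permutation adjusted p 0.0336). The Mcm4 call was lost without any one of 129S1/ImJ replicates 1, 2 or 3, C3H/HeJ replicate 3, C57Bl/6J replicate 3, DBA/2J replicates 2 or 3 or FVB/NJ replicate 2 (permutation adjusted p 0.0504 to 0.0724). The Mcm7 call was lost without any one of 129S1/ImJ replicates 1 or 2, A/J replicate 2, C3H/HeJ replicate 1, C57Bl/6J replicate 2, DBA/2J replicates 2 or 3 or FVB/NJ replicate 2 (permutation adjusted p 0.0507 to 0.0645). Among the Mcm3 pairs, those with 1426652_at differed, by 0.44 to 0.53, and those without it did not pass the test. The suffixes differ too: in the maker's naming, _s_at and _x_at mark sets whose probes may match further transcripts, and _a_at marks sets shared by transcripts of 1 gene. Which transcripts each set's probes match was not analysed here.

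Strain differences were not detected for the helicase genes. None of the 16 probe sets passed the limma F test over 6 strains in whole RNA (1 at an unadjusted p under 0.05) or in GLOBINclear RNA (0 at an unadjusted p under 0.05), while 4.32% and 11.2% of all tested probe sets did (13% and 22.6% at an unadjusted p under 0.05). The strain by preparation interaction called none of the 16, at an adjusted or an unadjusted p under 0.05 (limma), against 2.75% and 14.5% of all tested probe sets. The lowest limma adjusted p was 0.348, for Mcm6 1416251_at in GLOBINclear RNA. With 3 mice per strain, these tests set the differences between strain means against a spread between mice that is pooled over strains. Small differences can be missed.

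The means in GLOBINclear RNA ran for Mcm6 1416251_at from C57Bl/6J (4.89 ± 1.62, SD, n = 3) through C3H/HeJ (4.15 ± 0.44), A/J (3.85 ± 0.71), 129S1/ImJ (3.76 ± 0.89) and DBA/2J (3.26 ± 0.32) to FVB/NJ (3.04 ± 0.09), and each neighbour's range overlapped the next. For Mcm5 1436808_x_at the order was 129S1/ImJ (6.36 ± 1.12), C57Bl/6J (6.32 ± 1.69), C3H/HeJ (5.83 ± 0.23), DBA/2J (5.83 ± 0.28), FVB/NJ (5.50 ± 0.19) and A/J (5.42 ± 0.63). FVB/NJ was lowest for Mcm7 1438320_s_at (6.09 ± 0.21) and for Mcm7 1416030_a_at (2.80 ± 0.08), and C3H/HeJ was highest for both (6.97 ± 0.40 and 3.94 ± 0.33). For Mcm2 1448777_at A/J (5.14 ± 0.78) and FVB/NJ (5.14 ± 1.02) led and DBA/2J (4.28 ± 0.12) was lowest. Over the 16 sets, neighbours in the order did not overlap in 1 of 80 cases in GLOBINclear RNA (Mcm7 1416030_a_at, A/J above FVB/NJ) and in 4 of 80 in whole RNA. The share over all tested probe sets was not analysed here, so these counts are not read as few or many.

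Set against the mean of the other 5 strains, no strain passed the test for any of the 16 sets (limma on the mean of each mouse's arrays). Over all tested probe sets the shares above and below were 2.76% and 3.02% for 129S1/ImJ, 1.55% and 1.69% for A/J, 0.751% and 0.635% for C3H/HeJ, 3.87% and 1.93% for C57Bl/6J, 1.03% and 1.11% for DBA/2J, and 2.76% and 0.995% for FVB/NJ. At an unadjusted p under 0.05 there were 1 of 16 sets for C57Bl/6J and 2 of 16 for FVB/NJ, and 15.7% and 13.2% of all tested probe sets. The C57Bl/6J difference for Mcm6 1416251_at was 0.85 ± 0.32 (SE, limma adjusted p 0.162), and it became 1.31 (limma adjusted p 0.0287) when C57Bl/6J replicate 3 was left out. Without C57Bl/6J replicate 1 the F test called 1 set in each preparation, Mcm7 1439269_x_at in whole RNA (limma adjusted p 0.0396) and Mcm7 1416030_a_at in GLOBINclear RNA (limma adjusted p 0.0334).

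Within strains, all 6 showed a rise of Mcm5 1436808_x_at and of Mcm7 1438320_s_at (limma adjusted p under 0.05 in each), and 5 of 6 one of Mcm2 1448777_at. DBA/2J was the exception for Mcm2 (0.93, limma adjusted p 0.0531). Over 16 sets and 6 strains, 30 of the within-strain effects were called higher and 14 lower; with quantile normalization of all arrays the split was 22 and 21, and with median centring 30 and 4. Over all tested probe sets the shares called higher and lower were 32.1% and 38.3% in 129S1/ImJ, 24.6% and 23.2% in A/J, 28.7% and 37.7% in C3H/HeJ, 30.3% and 32.5% in C57Bl/6J, 30.4% and 25.1% in DBA/2J, and 27.9% and 34.7% in FVB/NJ. Mcm4 1416214_at rose most in 129S1/ImJ (1.06 ± 0.65, SD, n = 3, limma adjusted p under 0.05) and had a mean change of 0.19 ± 0.25 in A/J. As no interaction was called, these do not stand as differences between strains.

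**Figure D3:**
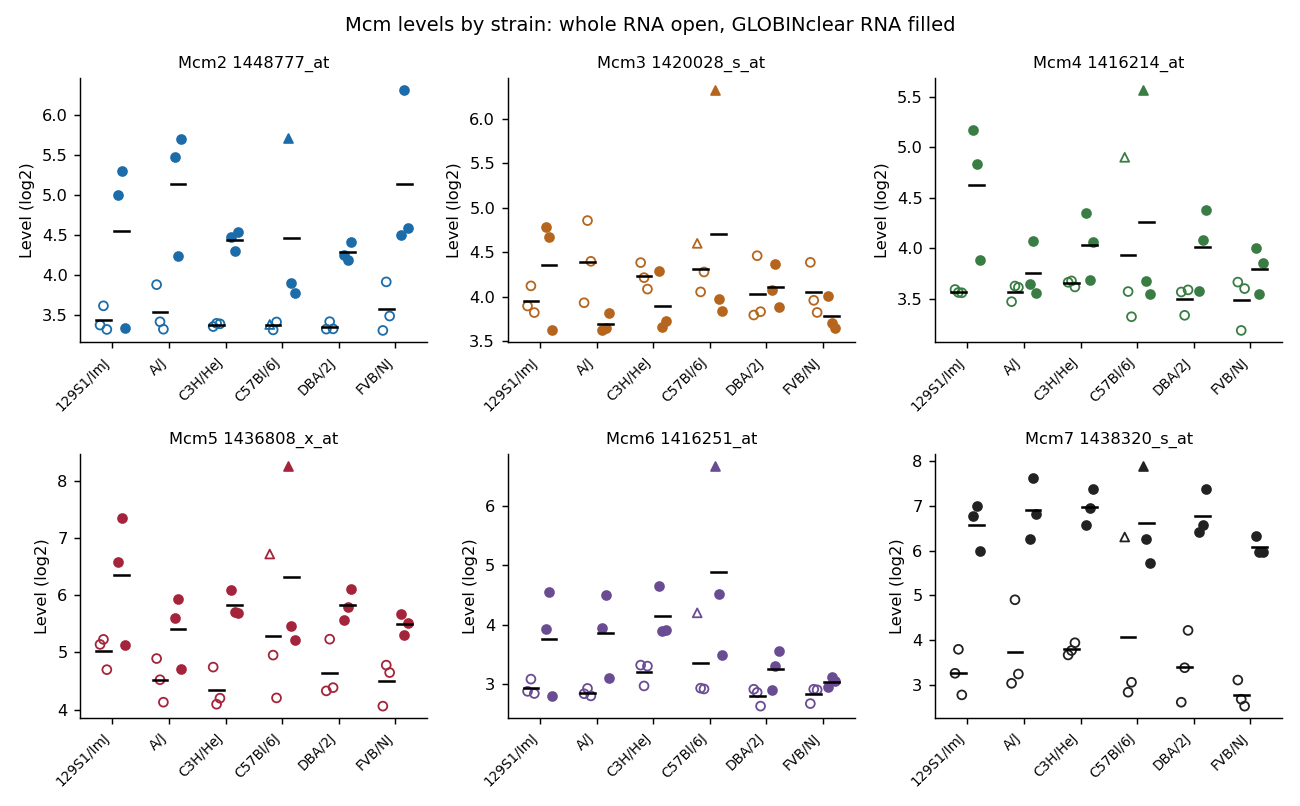
Levels (log2) of 1 probe set of each Mcm gene by strain, with whole RNA as open and GLOBINclear RNA as filled symbols, 1 symbol per mouse, triangles for C57Bl/6J replicate 1 and a black bar for the mean of 3 mice. For each gene the tested set with the highest change is drawn. Sets such as Mcm2 1434079_s_at (change -0.01) and Mcm6 1447756_x_at (-0.16) are thus not shown. For Mcm5 the C57Bl/6J triangle stands at 8.26, above the strain's other mice at 5.47 and 5.22.

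One mouse stood apart. C57Bl/6J replicate 1 read 8.26 for Mcm5 1436808_x_at in GLOBINclear RNA, against 5.47 and 5.22 in the strain's other mice. For Mcm6 1416251_at it read 6.66 against 4.52 and 3.49, and for Mcm3 1420028_s_at 6.32 against 3.97 and 3.83. Mcm4 1416214_at stood at 5.56 against 3.68 and 3.55. Of the 16 tested Mcm probe sets, 10 lay more than log2 1 above both other mice of the strain, as did 7.74% of all tested probe sets. In its whole RNA 4 of 16 did (3.89% of all), with Mcm7 1438320_s_at at 6.30 against 2.84 and 3.06.

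The lymphoid markers of that mouse moved with the Mcm genes. The 5 T cell markers with a probe set (of 6 listed) averaged 7.03 in its GLOBINclear RNA, 2.60 above the mean of the other C57Bl/6J mice, and 5 of 5 exceeded both by more than log2 1. The log2 of their summed level was 9.95, the top of a range from 6.77 over all 18 GLOBINclear arrays, and the range over the whole RNA arrays was 6.16 to 8.67. The B cell markers averaged 1.32 above those mice and the monocyte markers 1.05 above. Over the strain's 3 mice the B cell markers averaged 6.96, with a low of 5.78 and a high of 7.83 in this mouse. Its excess over the closer of the other C57Bl/6J mice was thus below 1.32. Neutrophil, platelet and red cell markers differed from the same mice by -0.01, -0.59 and -0.34. Its GLOBINclear array also had the lowest mean correlation with its group, 0.945. The part of these in the Mcm values was not tested, and in bulk blood more cells of a type and more RNA per cell cannot be told apart.

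Other mice departed in parts. In 129S1/ImJ replicate 3, 4 of 16 Mcm sets lay more than log2 1 below both other mice in GLOBINclear RNA, and 2.14% of all tested sets did. Mcm5 1436808_x_at read 5.14 there against 6.59 and 7.35, and Mcm2 1448777_at 3.34 against 5.01 and 5.30. Its neutrophil markers averaged 2.43 above and its T cell markers 1.03 below those mice, and their part was not tested. FVB/NJ replicate 2 was high for Mcm2 1448777_at (6.31 against 4.51 and 4.59) and for no other Mcm set by that margin. Its red cell markers averaged 0.76 above the strain's other mice.

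**Figure D4:**
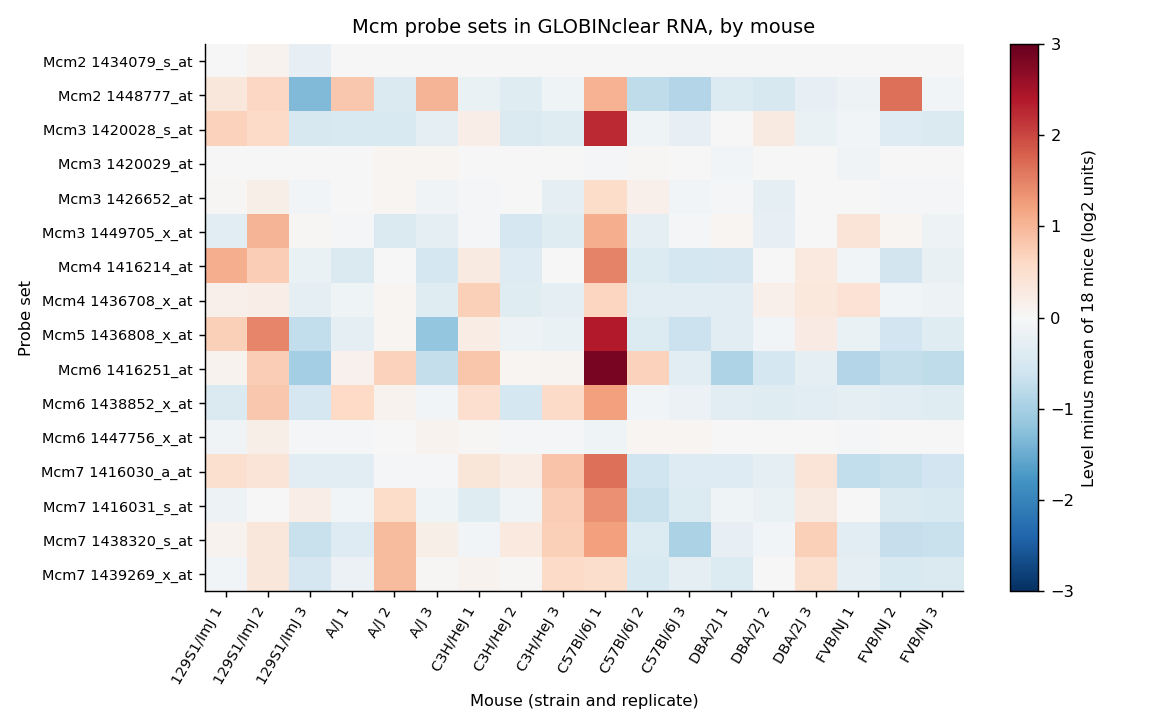
GLOBINclear level of each tested Mcm probe set (rows) in each mouse (columns), as the difference from the mean of 18 mice in log2 units. The column of C57Bl/6J replicate 1 is red for most rows and 129S1/ImJ replicate 3 is blue for several, while Mcm2 1434079_s_at, Mcm3 1420029_at and Mcm6 1447756_x_at stay pale throughout.

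Over the 18 mice the subunits varied together to unequal degrees. One probe set per gene (the one with the highest mean, which for Mcm6 is 1438852_x_at) gave 15 pairs of genes, and all 15 correlations in GLOBINclear RNA were above 0. After adjustment over the 15 pairs, 9 had a permutation adjusted p under 0.05 for Pearson's r and 4 for both r and Spearman's rho. Pairs of other genes on these arrays were not counted, so these numbers are not read as particular to the subunits. Mcm4 and Mcm5 were closest, with r 0.918 and rho 0.889 (permutation p 1e-05 for each, the smallest these resamples give, and adjusted p 0.00015). That r was 0.877 without the 2 mice farthest from the median of Mcm4 and 0.86 without C57Bl/6J replicate 1. Mcm5 and Mcm7 gave r 0.635 and rho 0.736 (permutation p 0.00365 and 0.00079, adjusted p 0.0137 and 0.00592), and r 0.464 without the 2 farthest mice.

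Other pairs rested on few mice. Mcm5 and Mcm6 gave r 0.66 (permutation p 0.0049, adjusted p 0.014), which was 0.0788 without the 2 farthest mice, and a rho of 0.29 (permutation p 0.242, adjusted p 0.404). Mcm3 and Mcm6 went from 0.57 to 0.162 without C57Bl/6J replicate 1. The median r over the 15 pairs was 0.522, and it was 0.29 without that mouse. In whole RNA the median r was 0.403. Mcm2 was the loosest member, with r between 0.22 and 0.421 against the other subunits. As deviations from the strain means, Mcm4 and Mcm5 gave 0.914. On that measure the Mcm2 pairs ran from 0.402 (with Mcm7) to 0.663 (with Mcm3), and Mcm6 and Mcm7 gave 0.519.

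Probe sets of 1 gene ranged from closely alike to unrelated. The r over 18 GLOBINclear arrays was 0.915 between Mcm7 1438320_s_at and 1439269_x_at and 0.791 between Mcm6 1416251_at and 1438852_x_at. It was -0.178 between Mcm6 1416251_at and 1447756_x_at and -0.264 between Mcm3 1420028_s_at and 1420029_at. Mcm3 1420029_at and Mcm6 1447756_x_at had an SD of 0.04 and 0.07 over the 18 mice, and Mcm2 1434079_s_at, with an SD of 0.07, had r 0.441 with the other Mcm2 set.

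The genes whose levels over the 18 GLOBINclear arrays lay closest to the Mcm genes were of many kinds. For Mcm5 these were Ppp5c, a protein phosphatase (r 0.941), Lig1, the ligase that joins Okazaki fragments (r 0.926), and Mcm4 itself (r 0.918). For Mcm3 they were Atad2, a bromodomain ATPase (r 0.965), Rabl6 (r 0.955) and Nsfl1c (r 0.949), and for Mcm4 Thumpd3 (r 0.951), Senp3 (r 0.947) and Brd9 (r 0.946). For Mcm2 they were Swi5 (r 0.907), Babam1 (r 0.862) and Atp5o (r 0.861), and for Mcm6 Lsm2 (r 0.84), Nop2 (r 0.821) and Ifih1 (r 0.821). C57Bl/6J replicate 1 read 6.32 for Mcm3 1420028_s_at, against a median of 3.86 over the 18 mice. In that mouse 7.74% of all tested probe sets lay more than log2 1 above both other mice of the strain. The neighbour correlations were not computed without that mouse, so its part in them was not tested.

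The 4 Mcm7 probe sets had different neighbours. Those of 1438320_s_at were Alyref, an mRNA export adaptor (r 0.922), Zfas1 (r 0.847) and Pclaf, a PCNA-associated factor (r 0.846). Those of 1416031_s_at included Cdc6, the loader of the Mcm ring (r 0.882), with Slirp (r 0.868) and Wrn, a RecQ helicase (r 0.836). Those of 1439269_x_at included Plk4, the kinase of centriole duplication (r 0.813), and those of 1416030_a_at Hmox2 (r 0.894). These are the highest of many correlations over mice that share the same arrays, given as a description.

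The rest of the replication machinery was mixed as well. Over 8 lists fixed by role, 79 genes were tested (1 probe set a gene, that with the highest mean over all arrays). Of these, 46 were higher and 19 lower in GLOBINclear RNA (limma adjusted p under 0.05), or 58.2% and 24.1%. Over all tested probe sets, which are not limited to the highest of a gene, the shares were 39.4% and 47.6%. With quantile normalization of all arrays the split of the 79 genes was 33 higher and 26 lower. With all tested probe sets of a gene averaged it was 42 and 18. Of the 10 origin licensing genes, which load the Mcm ring, 5 were higher and 2 lower, with a median change of 0.26 (0.12 with quantile normalization of all arrays and 0.11 with a gene's probe sets averaged). Cdt1, the loading factor that brings the ring to origins, rose by 1.94 ± 0.10 (SE, limma adjusted p 1.17e-12), from 3.28 to 5.22. Orc1, the largest subunit of the origin recognition complex, rose by 1.70 ± 0.14 (limma adjusted p 1.24e-09), and Mcmbp, which binds Mcm proteins, by 1.23 ± 0.08 (limma adjusted p 2e-11). Cdc6, named after its value was seen, had a change of 0.06 (limma adjusted p 0.492).

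Of 12 tested helicase activation genes 6 were higher and 3 lower, with a median of 0.10, and with a gene's probe sets averaged 4 were higher and 4 lower, with a median of 0.01. Ccna2, cyclin A2, rose by 1.37 ± 0.08 (limma adjusted p 2.62e-12). The GINS subunits went apart, with Gins4 rising by 1.23 ± 0.08 (limma adjusted p 5.33e-11) and Gins1 at -0.31 ± 0.03 (limma adjusted p 7.99e-09). Mcm10, which helps to activate the helicase, fell by 0.33 on the log2 scale (limma adjusted p 0.000336; it was named after its value was seen). Mcm8 and Mcm9, relatives that act in recombination rather than at the fork, were both lower, at -0.08 ± 0.02 and -0.47 ± 0.04 (limma adjusted p 4.93e-05 and 4.35e-09). Mcm8 too was tested only through its whole RNA level, with a GLOBINclear mean of 2.87.

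Of 20 tested genes for DNA polymerases, the clamp and its loader, 12 were higher and 6 lower. The median was 0.28, but -0.05 with quantile normalization of all arrays, where 7 were higher and 10 lower. Rpa1, the large subunit of the single-strand binding protein, rose by 2.66 ± 0.09 (limma adjusted p 2.02e-15), from 2.97 to 5.63. Fen1, the flap endonuclease, fell by 0.87 ± 0.10 (limma adjusted p 2.2e-07), and Pole2, a subunit of polymerase epsilon, by 0.28 ± 0.03 (limma adjusted p 5.99e-08). Of 7 nucleotide supply genes 3 were higher and 1 lower. Dck, deoxycytidine kinase, rose by 2.03 ± 0.13 (limma adjusted p 2.05e-11), Rrm2, the small subunit of ribonucleotide reductase, by 1.90 ± 0.10 (limma adjusted p 5.72e-13), and Tyms, thymidylate synthase, had a change of -0.13 ± 0.03 (limma adjusted p 0.000556).

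All 6 tested genes of histone chaperones and fork protection were higher, with a median of 0.75 (4 of 6 and 0.27 with quantile normalization of all arrays, 5 of 6 and 0.42 with a gene's probe sets averaged). Supt16, a subunit of the FACT chaperone, rose by 1.29 ± 0.13 (limma adjusted p 1.45e-08), Asf1a by 0.89 ± 0.08 (limma adjusted p 5.98e-09) and Asf1b by 0.61 ± 0.07 (limma adjusted p 1.65e-07), both chaperones of histones H3 and H4. Of 12 mitosis genes 6 were higher and 4 lower. Birc5, survivin, and Ccnb2, cyclin B2, each rose by 1.48 (± 0.08 and ± 0.10 SE, limma adjusted p 8.63e-13 and 3.12e-11), and Mki67, the proliferation antigen, by 1.16 ± 0.10 (limma adjusted p 1.46e-09). The median of the mitosis list was 0.27, but 0.14 with a gene's probe sets averaged and -0.04 with quantile normalization of all arrays, where 4 were higher and 5 lower.

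The E2F and RB list had 8 of 10 genes higher and 1 lower. E2f2, an activator E2F, rose by 1.55 ± 0.09 (limma adjusted p 3.29e-12), Rb1, the retinoblastoma repressor of E2F, by 1.38 ± 0.09 (limma adjusted p 1.16e-11), and Rbl2, its relative p130, by 0.96 ± 0.13 (limma adjusted p 9.63e-07).

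**Figure D5:**
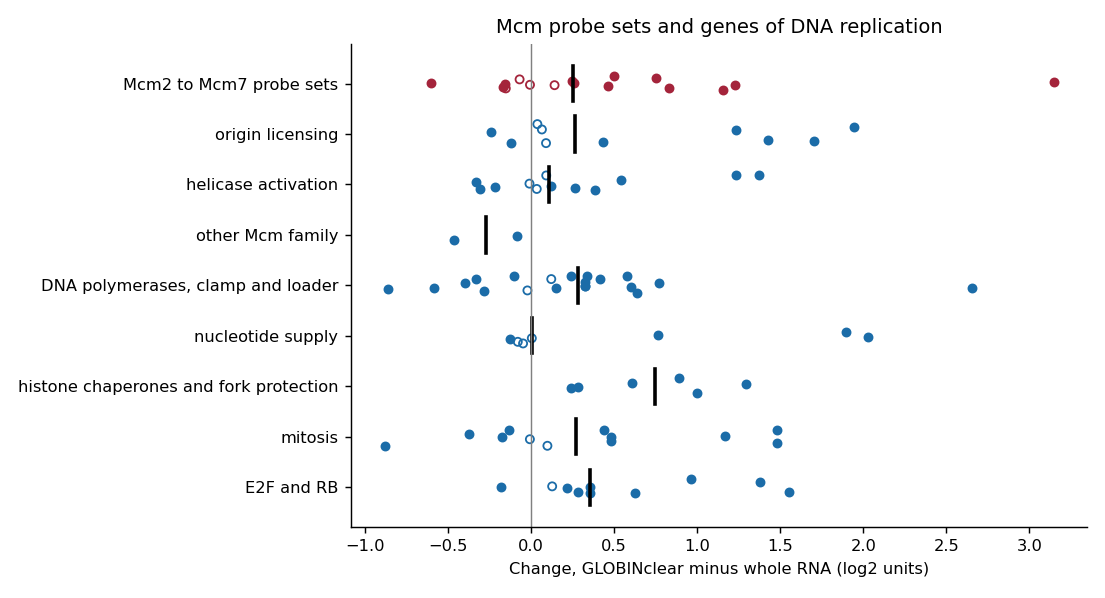
Change (GLOBINclear minus whole RNA, log2 units, horizontal axis) of the 16 tested Mcm probe sets, in red, and of the tested genes of 8 lists, in blue; filled points passed the test, open points did not, and black bars are medians. The medians run from -0.27 (other Mcm family) to 0.75 (histone chaperones and fork protection), with 0.25 for the Mcm probe sets.

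Of the 79 genes, the strain F test called 6 (7.59%) in whole and 13 (16.5%) in GLOBINclear RNA, against 4.32% and 11.2% of all tested probe sets, and the contrast with the Mcm sets was not tested. Called in both preparations were Dut, dUTPase (limma adjusted p 5.9e-05 in whole and 6.44e-09 in GLOBINclear RNA), and 5 further genes. Rb1 was one (limma adjusted p 0.000643 in whole and 1.49e-05 in GLOBINclear RNA), lowest in C57Bl/6J (7.77 ± 0.23, SD, n = 3, in GLOBINclear RNA) and highest in DBA/2J (10.6 ± 0.09). E2f2 was also called in both (limma adjusted p 0.0288 and 0.00603), from 10.8 ± 0.07 in C57Bl/6J to 12.4 ± 0.56 in 129S1/ImJ. Asf1b (limma adjusted p 0.0211 and 0.0066) ran from 3.45 ± 0.21 in DBA/2J to 5.79 ± 0.99 in 129S1/ImJ. Ccnb2 (limma adjusted p 0.0486 and 0.0315) had the same strains at its ends, 5.23 ± 0.41 and 7.19 ± 0.65. Ube2c, a ubiquitin-conjugating enzyme of mitotic exit, was called in both as well (limma adjusted p 0.0419 and 0.00438), with DBA/2J lowest at 12.3 ± 0.12.

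The neighbourhood of the genes was looked at for shared signal. Mcm7 overlaps Ap4m1 by 91 bases at its start, ends 598 bases from Cops6 and holds 3 miRNA genes (Mir25, Mir93 and Mir106b). Cops6 1451366_at, a subunit of the COP9 signalosome, rose by 1.21 ± 0.07 (SE, limma adjusted p 2.3e-12), and its other probe set, below the filter, had a change of -0.04. Set 1451366_at averaged 2.73 in whole RNA and passed the filter only through GLOBINclear RNA. Ap4m1 lay below the filter, at 2.35 in whole and 2.28 in GLOBINclear RNA. Mcm4 lies 43 bases from Prkdc, the catalytic subunit of the DNA-dependent protein kinase, whose change was 0.06 ± 0.05 (SE, limma adjusted p 0.296). Mcm2's neighbour Tpra1 had a change of -0.19 ± 0.08 (SE, limma adjusted p 0.0317).

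Measures of the arrays moved with the preparation too. The difference between the 3′ and 5′ control sets of Actb and Gapdh was 0.13 ± 0.18 (SD, n = 18) in whole and 1.17 ± 0.20 in GLOBINclear RNA. The hybridization spike-ins averaged 11.6 ± 0.19 and 9.50 ± 0.19, and 2196 to 3122 probe sets reached log2 5 in whole RNA against 3802 to 5278 in GLOBINclear RNA. Their part in the changes of the Mcm probe sets was not tested. Markers of the labelled tissue were present, with 6 of 6 platelet and 8 of 8 red cell markers averaging log2 5 or more in GLOBINclear RNA, while 2 of 5 T cell, 5 of 5 B cell, 3 of 5 neutrophil, 2 of 5 monocyte and 1 of 6 progenitor markers did.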

How the data were processed

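RNA of 18 mice was measured on 36 Affymetrix arrays. The authors deposited log2 expression levels, 1 per probe set and array; the scale was inferred from their range. The tools listed in the submitters' processing notes are GCRMA, MAS5 and affy, without roles. The sources used here do not say whether whole and GLOBINclear arrays were normalized jointly. Control probe sets (64) were left out, and probe sets with a mean over all arrays above the median of those means (log2 2.89) were tested with limma 3.58.1 (lmFit, eBayes with trend, Benjamini-Hochberg over all 22518). A set can thus pass through a single preparation. Mcmbp, Timeless, Pola2, Pold2, E2f8, Rbl1 and Cops6 1451366_at did so through GLOBINclear RNA, and Mcm8 and Mcm10 through whole RNA. Preparation effects had the mouse as a block, as the series text pairs the samples by mouse. As a check, 17 of 18 same-mouse arrays correlated over 0.1 in their deviations (lowest -0.08). Strains were tested per preparation. Probe sets of a gene were compared by 100000 sign flips, and correlations by 100000 permutations. Named were all Mcm probe sets, the 3 list members with the largest statistic, those called between strains in both preparations, and the 3 nearest patterns. Members and lists were chosen with earlier results of these data known. Alternatives were normalization, filter, variance trend, the block and leaving out each mouse. Scripts were tested on simulated data. GRCm38.p6 windows came from RefSeq.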

Additional observations from a re-analysis of the deposited data

Results flagged for a closer look

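Dut, dUTPase, which keeps uracil out of DNA, was 1 of 4 of the 79 tested replication genes (5.06%) whose globin reduction effect differed between strains, against 2.75% of all tested probe sets (interaction, limma adjusted p 0.00199). In whole RNA the means were 3.02 ± 0.10 (SD, n = 3) in 129S1/ImJ, 3.12 ± 0.03 in A/J, 3.14 ± 0.18 in FVB/NJ, 4.45 ± 0.64 in C3H/HeJ, 4.70 ± 0.12 in DBA/2J and 5.21 ± 0.31 in C57Bl/6J. In GLOBINclear RNA they were 3.31 ± 0.43, 2.83 ± 0.16, 3.12 ± 0.18, 5.70 ± 0.14, 6.35 ± 0.26 and 6.90 ± 0.25 in the same order. The 3 higher strains thus rose further while the 3 lower strains stayed near the bottom of the scale, and the strain F test called Dut in both preparations (limma adjusted p 5.9e-05 and 6.44e-09).

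The other 3 were named after their values were seen. E2f1, an activator E2F (interaction, limma adjusted p 0.0193), averaged 3.25 to 3.52 over the strains in whole RNA, and in GLOBINclear RNA 5.30 ± 0.99 (SD, n = 3) in 129S1/ImJ and 5.12 ± 1.12 in FVB/NJ against 3.17 to 3.84 in the other 4. Timeless, a fork protection gene (limma adjusted p 0.0497), averaged 2.53 to 2.58 in whole RNA and from 3.05 ± 0.23 in C3H/HeJ to 4.63 ± 0.12 in 129S1/ImJ in GLOBINclear RNA. It passed the filter only through GLOBINclear RNA. Rfc2, a subunit of the clamp loader (limma adjusted p 0.0471), averaged 3.35 to 3.66 in whole RNA and from 3.69 ± 0.01 in A/J to 4.75 ± 0.60 in 129S1/ImJ in GLOBINclear RNA.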

How the results depend on the processing

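With quantile normalization of all arrays 8 Mcm sets were lower, Mcm7 1416031_s_at turned to -0.52 and Mcm6 1438852_x_at minus 1447756_x_at to -0.37. With spike-in centring 16 sets were higher and 0 lower (within strains 96 and 0), the 8 lists had 79 genes higher and 0 lower, and Mcm3 1420029_at (1.91), Mcm3 1426652_at (1.47) and Mcm6 1447756_x_at (1.92) reversed; by construction it shifts all sets alike. Median centring left 4 within-strain calls lower. Testing all sets gave 5 lower (22 within strains), and a mean of at least log2 5 left 2 higher and 0 lower (12 and 0 within strains), as fewer sets were tested. Without the replicate block (mouse ignored) 8 sets were higher and 3 lower, Mcm7 1416031_s_at losing its call (limma adjusted p 0.0735), and 20 within-strain effects were higher. Leaving out 1 mouse at a time gave 8 to 9 sets higher and 3 lower, 26 to 31 and 12 to 14 within strains, 11 to 14 pairs of probe sets, and 0 to 1 calls in each strain F test and above the other 5 strains. Where no construction is named, the cause was not tested. Only 2 of the 16 sets averaged log2 5 or more over both preparations, Mcm7 1438320_s_at through its GLOBINclear level, so signal over background limits the Mcm values.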
